A study of Canis lupus familiaris with 9 samples.

Results

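Cholesterol and fatty acids are both built from cytosolic acetyl-CoA. In the mevalonate pathway acetyl-CoA is condensed and reduced to mevalonate, which is then turned into isoprenoid units, squalene, lanosterol and cholesterol, while acetyl-CoA carboxylase and fatty acid synthase lead to palmitate, which is elongated, desaturated and coupled to coenzyme A. Genes of both routes are driven by the SREBP transcription factors, which the sterol sensor SCAP escorts out of the endoplasmic reticulum when sterol is scarce and which the INSIG proteins hold back when it is plentiful. Macrophages take up much sterol from lipoproteins and dead cells, and store it as esters, export it or oxidize it.

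The genes described here are those of a list of 46 genes for cholesterol synthesis, its control, sterol handling and fatty acid synthesis whose symbol is in the deposited gene table. They number 42 of the 12696 protein coding genes of that table. IDI1, EBP, CH25H and ELOVL6 were not analysed here. By role, 16 of the 42 encode enzymes of the mevalonate and sterol steps (sterol enzymes below), 11 regulate or handle sterol, and 15 encode enzymes that supply, build, elongate, desaturate or activate fatty acids (fatty acid enzymes). The list was put together by pathway, with earlier results of these data known.

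RNA was sequenced from macrophages grown from blood monocytes of beagles, spayed females about 2 years old. Monocytes were isolated by adherence and kept for 7 days in recombinant human M-CSF at 10 ng/mL, which all 3 groups share. They then spent 24 h without a polarizing cytokine (M0, resting), with canine IFN-γ at 20 ng/mL (M1, inflammatory) or with a mix of canine IL-4 (20 ng/mL) and IL-13 (20 ng/mL) (M2, anti-inflammatory), with 3 samples per group and 9 in all. The M1 state is one of IFN-γ alone, with no bacterial product added, and adherent blood cells can hold other cell types than monocytes.

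The values are the authors' group means of DESeq2-normalized counts (normalized counts below), 1 value per gene and group. Values per sample were not analysed here, so no SD, interval or p-value stands beside them. Whether a difference exceeds the spread between dogs was not tested for any gene below, and every comparison is a description of 3 group means. Ratios are log2 of (mean + 1) over (mean + 1), for genes with a mean of at least 50 in the higher of both groups, and a gene is counted as past the fold at a ratio of 1.5 or more in either direction. The depth per sample is unknown from these means, which summed to 26728643 in M0, 28039918 in M1 and 27312028 in M2 over the table. Normalized counts are not divided by gene length, so levels are compared within a gene only.

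The labels were checked against genes that the treatments are known to induce. IDO1 had means of 159 (M0), 104559 (M1) and 348 (M2) normalized counts, and FCER2 had 51.5, 43.3 and 3735. Of 9 macrophage markers 8 were analysed, CSF1R, CD68, CD163, MSR1, AIF1, ITGAM, MRC1 and MARCO, and their summed mean was 200267 in M0, 84324 in M1 and 189493 in M2. Without MRC1, which IL-4 is known to induce, the sum was 193221 in M0, 82969 in M1 and 155600.0 in M2. The genes with the highest counts carry these sums, and the markers did not move alike. In M1 against M0 the log2 ratio was -2.38 for MRC1, -2.32 for CD163, -1.33 for ITGAM and -1.17 for CSF1R. It was -0.645 for MSR1, -0.49 for MARCO and -0.43 for CD68. AIF1 went the other way, at 0.20, with means of 3940 in M0 and 4525 in M1. In M2 against M0 the log2 ratio was 2.27 for MRC1, -0.94 for MSR1 and -0.54 for MARCO. For ITGAM, CD163, CSF1R, AIF1 and CD68 it was -0.37, -0.28, -0.26, -0.17 and -0.02. All 5 T cell markers were in the table, with sums of 1562 in M0, 5253 in M1 and 1278 in M2. Of these sums CD2 alone held 1253, 5032 and 919, and the other T cell markers did not follow it. CD3E had 92.8 in M0, 88.8 in M1 and 162 in M2. CD3D, with 18.2, 14.7 and 33.7, and CD3G, with 25.2, 21.6 and 37.9, were also highest in M2 but under 50 throughout. CD5 was highest in M0, with 174, 95.5 and 125. All 5 B cell markers were in the table too, with sums of 10682, 9991 and 12242, nearly all of it CD79A, beside MS4A1 means of 14.4 to 18.2. Of the other lists, 1 of 5 fibroblast markers (PDGFRB, 125, 466 and 159), 1 of 3 neutrophil markers (CSF3R, 664, 376 and 92.9) and 1 of 3 platelet markers (ITGA2B, 40.2, 42.8 and 35.2) were analysed, and no marker in the table had a mean of 0. The part of other cells in the values below was not tested, and in bulk RNA fewer cells of a type and less RNA per cell cannot be told apart.

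Most sterol enzymes had a modestly higher mean in M1 than in M0. Of the 16, 13 had the higher mean in M1, against 51.3% of the 10790 genes compared, and their median log2 ratio was 0.34, against 0.01 over all genes. Only 3 of them were at least 1.5-fold higher in M1, beside 13.5% of all genes, and 1 was at least 1.5-fold lower, beside 16.5% of all genes. The differences were small, with quartiles of the log2 ratio at 0.18 and 0.49 and a whole range of -0.94 to 0.63.

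The early enzymes make and phosphorylate mevalonate. ACAT2, which joins acetyl-CoA units, had means of 827 (M0), 1133 (M1) and 948 (M2) normalized counts. HMGCS1, the synthase of hydroxymethylglutaryl-CoA, had 1078 in M0, 1482 in M1 and 1381 in M2. MVK, mevalonate kinase, had 824 in M0, 1029 in M1 and 853 in M2. In each of these genes M0 was the lowest group and M1 the highest, with M2 between them. The span of ACAT2 overlaps that of TCP1, a chaperonin subunit, in the RefSeq annotation of the dog assembly UU_Cfam_GSD_1.0. Whether counting used strand is not given in the sources used here, and TCP1 had a log2 ratio of 0.48 in M1 against M0 beside 0.45 for ACAT2.

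MVD, the decarboxylase that yields isopentenyl diphosphate, had means of 1547 in M0, 2359.8 in M1 and 2051 in M2. The log2 ratio of MVD was 0.61 in M1 against M0 and 0.41 in M2 against M0. FDPS, which makes farnesyl diphosphate for sterols and for prenylated proteins, had means of 2472 in M0, 3483 in M1 and 3122 in M2, again with M0 lowest and M1 highest. PMVK, phosphomevalonate kinase, which acts between MVK and MVD, went the other way. Its means were 311 in M0, 162 in M1 and 283 in M2, with a log2 ratio of -0.94 in M1 against M0. PMVK was thus 1.91-fold higher in M0 than in M1, the widest gap of all 16 sterol enzymes, and the 5 other mevalonate enzymes had log2 ratios of 0.32 to 0.61 in that comparison.

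In the sterol steps proper, M1 was above M0 for 8 of 10 enzymes. FDFT1, squalene synthase, the first enzyme committed to sterols, had means of 1046 in M0, 1069.5 in M1 and 971 in M2, which differ by at most 1.10-fold. SQLE, squalene epoxidase, a rate-limiting oxygenase of the pathway, had 1344 in M0, 1723 in M1 and 1349 in M2. Here M2 lay at the level of M0, with a log2 ratio of 0.01, and M1 alone stood higher, at 0.36. LSS, which cyclizes the epoxide to lanosterol, had 829 in M0, 971 in M1 and 928 in M2.

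CYP51A1, the lanosterol demethylase, had means of 982 in M0, 1374 in M1 and 1374 in M2, so that both polarized states stood above M0 by the same log2 ratio, 0.48. MSMO1, a methylsterol oxidase, had 1008 in M0, 1215 in M1 and 1109 in M2, but its row joins the named gene with a second entry that has no name, so its counts may hold reads of both. NSDHL, which works with MSMO1 on the methyl groups, had 356 in M0, 539 in M1 and 415 in M2, with a log2 ratio of 0.60 in M1 against M0. SC5D, the sterol desaturase near the end of the pathway, had 593 in M0, 915 in M1 and 787 in M2, and its 1.54-fold difference between M1 and M0 was the largest of the sterol enzymes with a higher mean in M1. DHCR7, which makes cholesterol from 7-dehydrocholesterol, had 438 in M0, 519 in M1 and 423 in M2.

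TM7SF2, a sterol reductase, and HSD17B7, a ketosteroid reductase of the same pathway, were the others with a lower mean in M1. TM7SF2 had means of 209.5 in M0, 154 in M1 and 192 in M2. HSD17B7 had 403 in M0, 374 in M1 and 398 in M2, with a range of 1.08-fold. In the higher direction, the ratios of MVD, NSDHL and SC5D in M1 were 1.53-fold, 1.51-fold and 1.54-fold, close to the threshold of 1.5. All of these were under it when the groups were scaled to equal sums, where 12 of 16 sterol enzymes still had the higher mean in M1, beside 45.4% of all genes.

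**Figure D1:**
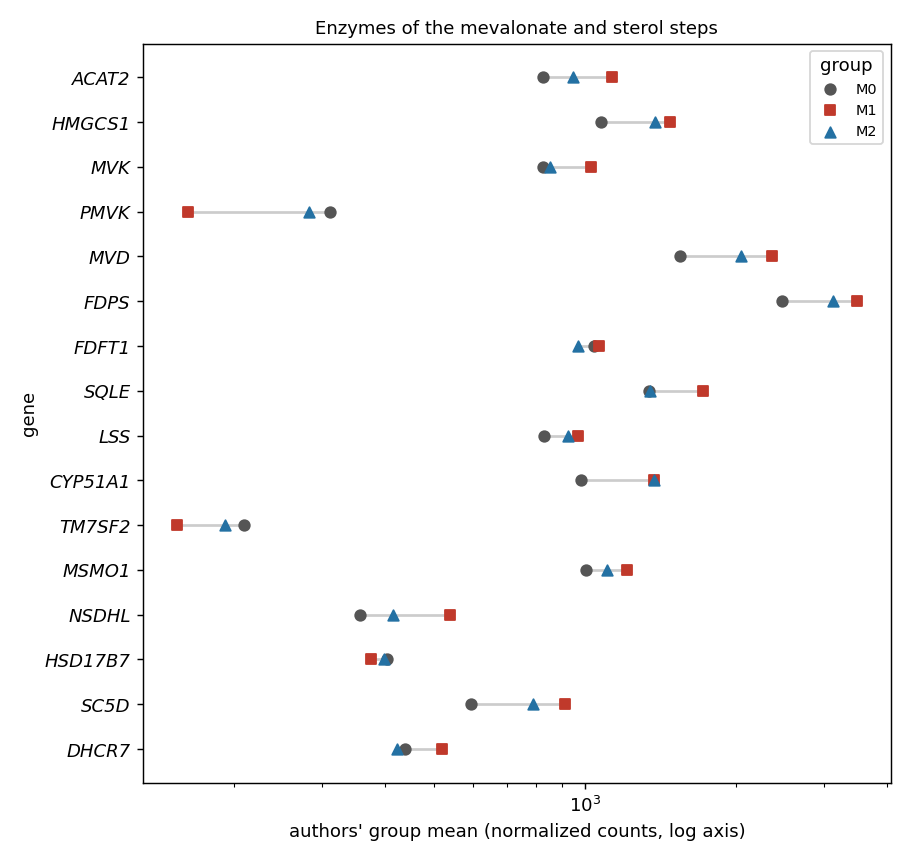
Authors' group means of the 16 sterol enzymes, in normalized counts on a log axis, with 1 point each for M0, M1 and M2 and a grey line from the lowest to the highest. The M1 point is the rightmost for 12 genes, and it is the leftmost for PMVK, TM7SF2 and HSD17B7.

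In M2 macrophages the sterol enzymes lay within 1.5-fold of the resting level. None of the 16 was at least 1.5-fold higher or lower in M2 than in M0, beside 6.2% of all 10787 genes in the higher direction and 8.66% in the lower one. The mean was higher in M2 for 11 of 16, beside 53.1% of all genes, with a median log2 ratio of 0.15 against 0.02. The largest ratios in M2 against M0 were those of CYP51A1, SC5D and MVD, at 0.48, 0.41 and 0.41. M2 lay between M0 and M1 for 13 of the 16, including all 6 mevalonate enzymes, whereas 50% of the 10902 genes with a mean of at least 50 in any group had M2 between the others.

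Set directly against M1, M2 had the higher mean for 4 of 16 sterol enzymes, beside 49.6% of all 10737 genes compared, and a median log2 ratio of -0.15. PMVK was the only one past the fold, at 0.80, beside 13.3% of all genes higher and 11.4% lower in M2. The comparisons share their groups and are not independent of each other.

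Among the regulators of the pathway, INSIG1 stood apart. INSIG1, which retains the SCAP and SREBP complex and is itself a target of SREBP, had means of 2175 (M0), 7452 (M1) and 2906 (M2) normalized counts. Its mean was 3.42-fold higher in M1 than in M0, a log2 ratio of 1.78 that was exceeded by 219 of 10790 genes. In M2 it was 1.34-fold above M0, and in M2 against M1 its log2 ratio was -1.36. INSIG2, the second brake, which is less responsive to sterol, had means of 564 in M0, 421 in M1 and 611 in M2. The order of the groups was therefore not the same for the INSIG genes: M1 was the highest group for INSIG1 and the lowest for INSIG2.

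SCAP had means of 1534 in M0, 1357 in M1 and 1477 in M2, and SREBF2, which encodes the SREBP that mainly drives sterol genes, had 7539, 6491 and 7311. SREBF1, whose products mainly drive fatty acid genes, had 1139 in M0, 839 in M1 and 1099 in M2. All of these had their lowest mean in M1, within 1.36-fold of M0, while 13 of 16 sterol enzymes had a lower mean in M0 than in M1.

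Of the 5 genes of sterol transport, storage and receptor turnover, MYLIP, SOAT1 and NPC1 had a range over the groups of at least 1.5-fold and STARD4 and NPC2 did not, beside 38.1% of all genes with such a range. MYLIP, also called IDOL, a ubiquitin ligase that targets lipoprotein receptors for degradation and is induced by LXR, had means of 652 in M0, 164 in M1 and 271 in M2. It was 3.97-fold lower in M1 and 2.40-fold lower in M2 than in M0, so that both polarized groups stood under the resting one. STARD4, a carrier that moves cholesterol between membranes, had 685 in M0, 992 in M1 and 819 in M2, in the same order as most sterol enzymes.

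SOAT1, which esterifies cholesterol for storage in lipid droplets, had means of 9915 in M0, 4392 in M1 and 8746 in M2. M1 stood apart from the others, 2.26-fold under M0, while M2 was within 1.13-fold of M0. NPC1, which exports cholesterol from lysosomes, had 14456 in M0, 15579.6 in M1 and 9253 in M2, and here M2 was the group that stood apart, 1.56-fold under M0 and 1.68-fold under M1. NPC2, its soluble partner, had 18463 in M0, 16750.0 in M1 and 14549 in M2, also lowest in M2 but by 1.27-fold. The span of NPC1 overlaps that of RMC1 in the RefSeq annotation. RMC1 had means of 1440 in M0, 2030.4 in M1 and 1268 in M2.

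CYP27A1, the mitochondrial sterol hydroxylase that makes an oxysterol ligand of LXR and leads sterol into bile acids, had the widest range of the 41 genes that reached the count minimum. Its means were 1077 (M0), 196 (M1) and 1825 (M2) normalized counts. It was 5.47-fold lower in M1 than in M0 and 1.69-fold higher in M2 than in M0, and thus 9.26-fold higher in M2 than in M1. Its log2 ratio of 3.21 in M2 against M1 was exceeded by 98 of 10737 genes, and in M1 against M0, at -2.45, 150 of 10790 genes had a lower one.

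**Figure D2:**
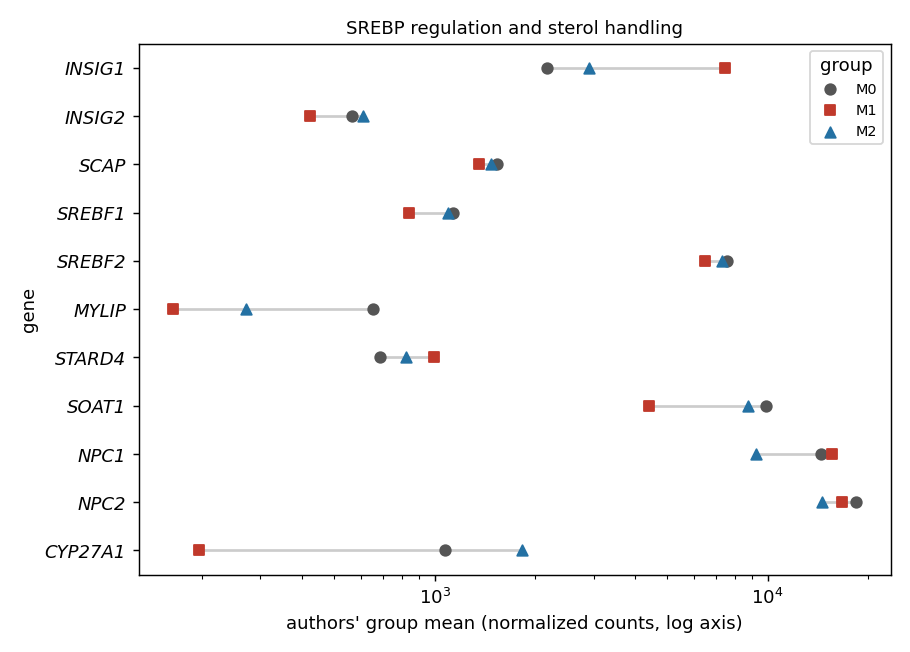
Authors' group means of the 11 genes of SREBP regulation and sterol handling, in normalized counts on a log axis, with 1 point each for M0, M1 and M2 and a grey line from the lowest to the highest. M1 is far right for INSIG1, and far left for CYP27A1, MYLIP and SOAT1, while NPC1 and NPC2 have their lowest point in M2.

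The fatty acid enzymes did not share a direction. In M1 against M0, 6 of the 14 that reached the count minimum had the higher mean and 8 the lower, beside 51.3% of all genes with the higher mean in M1, with a median log2 ratio of -0.12. That median changed sign, to 0.0078, when the count minimum was raised to 500. Of these 14, 3 were at least 1.5-fold higher, beside 13.5% of all genes, and 2 at least 1.5-fold lower, beside 16.5%. Their ratios ran from -1.55 to 1.80, wider than those of the sterol enzymes, and the distance between their quartiles was 0.64 against 0.31 for the sterol enzymes and 0.70 for all genes. The branch medians in M1 against M0 lay 0.45 apart.

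Of the 3 enzymes that supply carbon and reducing power, none was past the fold in any comparison. ACLY, which cleaves citrate to cytosolic acetyl-CoA for both branches, had means of 7270 in M0, 7515 in M1 and 7342 in M2, with a range of 1.03-fold that was the smallest among the 41 genes. ACSS2, which makes acetyl-CoA from acetate, had 8751 in M0, 6512 in M1 and 8097 in M2. ME1, a malic enzyme that yields NADPH, had 143 in M0, 110 in M1 and 104 in M2.

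ACACA, the acetyl-CoA carboxylase of fatty acid synthesis, had means of 882 in M0, 703 in M1 and 891 in M2. FASN, fatty acid synthase, had 1062 in M0, 1271 in M1 and 1614 in M2, and was the only fatty acid enzyme past the fold in the higher direction in M2, at 1.52-fold over M0. That difference was under the fold when the groups were scaled to equal sums or centred on the median gene. ACACB, the carboxylase at the mitochondrial membrane, had means of only 28.7 in M0, 4.18 in M1 and 8.11 in M2, under the minimum of 50 in every group, and entered no count.

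The desaturases FADS1 and FADS2 had lower means in both polarized states. FADS2, which carries out the first desaturation of polyunsaturated fatty acid synthesis, had means of 1278 in M0, 435 in M1 and 533 in M2. Its log2 ratio was -1.55 in M1 and -1.26 in M2 against M0. FADS1, which acts later in the same route and is the neighbor of FADS2 in the RefSeq annotation, had 531 in M0, 203 in M1 and 281 in M2, with log2 ratios of -1.38 and -0.92. In M2 against M1 both were within the fold, at 0.29 for FADS2 and 0.47 for FADS1. SCD, which makes oleate from stearate, had 404 in M0, 292 in M1 and 379 in M2, also highest in M0 but within 1.38-fold.

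ELOVL5, which elongates the polyunsaturated products of FADS2, had means of 1609.6 in M0, 3022 in M1 and 1249 in M2. It was thus 1.88-fold higher in M1 than in M0, in the comparison in which FADS1 and FADS2 were lower, and 2.42-fold higher in M1 than in M2. ELOVL1, the elongase of saturated very long chains, had 1939.9 in M0, 2117 in M1 and 1907 in M2.

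The acyl-CoA synthetases, which activate long-chain fatty acids, separated into genes that were high in M1 and genes that were level. ACSL1, which serves lipid synthesis and signaling in inflammatory macrophages of mice, had means of 2679.9 in M0, 9305 in M1 and 1865 in M2. It was 3.47-fold higher in M1 than in M0 and 4.99-fold higher in M1 than in M2, and its log2 ratio in M1 against M0, 1.80, was exceeded by 216 of 10790 genes. ACSL5 had 1209 in M0, 2943 in M1 and 1348 in M2, 2.43-fold higher in M1 than in M0. ACSL3, a synthetase of lipid droplets, had 1343 in M0, 1313 in M1 and 1248 in M2, and ACSL4, which prefers arachidonate, had 3909 in M0, 3406 in M1 and 4118 in M2. In the RefSeq annotation ACSL1, ELOVL5, ME1 and ACACA overlap the span of another protein coding gene, so their counts may be affected. That annotation is of another assembly than the CanFam3.1 used for alignment, and an effect of the overlaps was not tested.

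**Figure D3:**
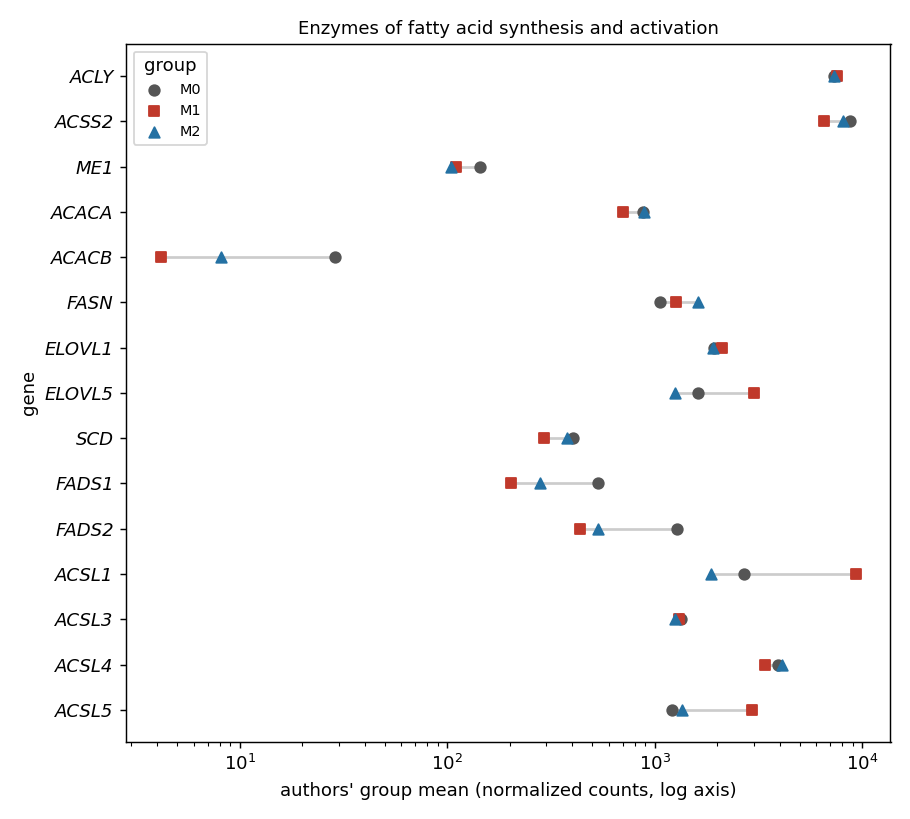
Authors' group means of the 15 fatty acid enzymes, in normalized counts on a log axis, with 1 point each for M0, M1 and M2 and a grey line from the lowest to the highest. M1 is rightmost for ACSL1, ACSL5 and ELOVL5 and, by less, for ACLY and ELOVL1. It is leftmost for FADS1, FADS2, ACSS2, ACACA, ACACB, SCD and ACSL4, and ACACB lies under 50 in all groups.

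In M2 against M0, 5 of 14 fatty acid enzymes had the higher mean, beside 53.1% of all genes, and the median log2 ratio was -0.10. FASN was past the fold in the higher direction, beside 6.2% of all genes, and FADS1 and FADS2 in the lower, beside 8.66%. In M2 against M1, 7 had the higher mean and 7 the lower, beside 49.6% of all genes with the higher mean in M2. ACSL1, ACSL5 and ELOVL5 were at least 1.5-fold lower in M2, beside 11.4% of all genes. The medians of the sterol and fatty acid enzymes lay 0.25 apart in M2 against M0. Over the 41 genes, 7 were at least 1.5-fold higher and 6 lower in M1 against M0, beside 13.5% and 16.5% of all genes. In M2 against M0, 2 were higher and 4 lower, beside 6.2% and 8.66%, and in M2 against M1, 4 were higher and 5 lower, beside 13.3% and 11.4%. The counts of the 41 genes thus lie near those of all genes. In all, 15 were past the fold in at least 1 comparison and 26 in none, a share past the fold of 36.6% beside 38.1% of all genes.

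**Figure D4:**
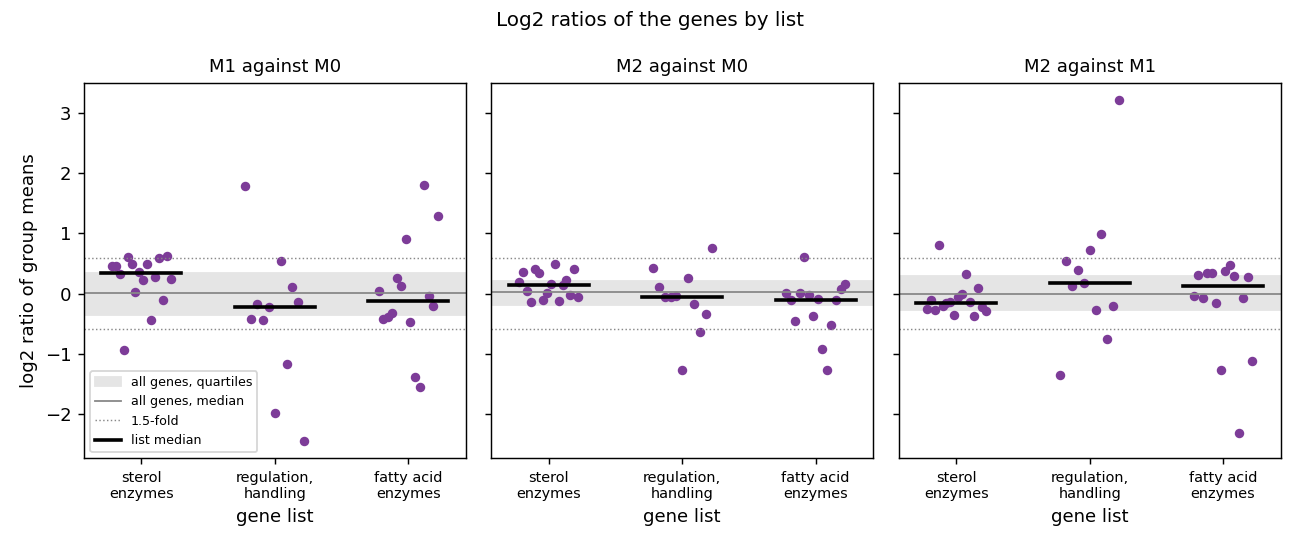
Log2 ratios of group means for the sterol enzymes, the genes of regulation and handling and the fatty acid enzymes in the 3 comparisons. Each point is a gene, black bars are list medians, the grey band holds the quartiles of all genes and dotted lines mark 1.5-fold. In M1 against M0 the sterol enzymes run from -0.94 to 0.63 around a median of 0.34. The genes of regulation and handling run from -2.45 to 1.78, and the fatty acid enzymes from -1.55 to 1.80.

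A second list held other genes of the same pathways, of which 30 were counted; some of them are not named here. In M1 against M0, 2 of the 30 were at least 1.5-fold higher and 2 lower, beside 13.5% and 16.5% of all genes, and 1 of the 2 higher genes is not named. HACD3, a dehydratase of fatty acid elongation, had means of 1072 in M0, 1677 in M1 and 1317 in M2. HACD4, another member of that dehydratase family, had 917 in M0, 367 in M1 and 440.1 in M2, lower in both polarized groups as FADS1 and FADS2 were. LBR, a lamin receptor that is also a sterol reductase like TM7SF2, had 3114 in M0, 1431 in M1 and 2538 in M2. PGRMC1, a heme protein that binds CYP51A1, had 3226 in M0, 2354 in M1 and 5401 in M2, and was the only one of the 30 at least 1.5-fold higher in M2 than in M0, beside 6.2% of all genes. HACD4 was the only one of the 30 at least 1.5-fold lower in M2 than in M0, beside 8.66% of all genes. In M2 against M1, 3 of the 30 were at least 1.5-fold higher and 0 lower, beside 13.3% and 11.4% of all genes. LBR, at a log2 ratio of 0.83, and PGRMC1, at 1.20, were among the higher ones, and the other is not named. The median log2 ratio of the 30 was 0.07 in M1 and 0.05 in M2 against M0, and 0.05 in M2 against M1.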

How the data were processed

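RNA was sequenced from 9 samples, 3 each of M0, M1 and M2 canine macrophages. After read filtering, the authors used STAR 2.7.3a with the CanFam3.1 assembly for alignment in Partek 7.0, HTSeq for counting per gene, and DESeq2 for normalization and modeling. The deposited signal values used here are least squares means of the normalized counts, 1 per group as the authors computed them, limited to protein coding genes. The table also holds the authors' p-values, FDRs and ratios of their comparisons, which were not used, and no values per sample were used, so no model was fitted. The labels and the study's methods gave the groups, doses and times.

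From the means, log2 ratios were computed with a pseudocount of 1, for genes with a mean of at least 50 in the higher group, and a fold of 1.5 was counted. The genes and lists were chosen by pathway, with earlier results of these data known. Named genes are all those of the list, the genes of a second list past the fold, and markers of treatments and cell types. Some genes that this rule names are not reported here by name. Alternatives were folds of 2 and of a log2 ratio of 1.5, pseudocounts of 0 and 10, a minimum of 500 or none, equal sums, and median centring. The computation was run on simulated group means with large, exact folds and no spread between samples, which checks the arithmetic only. Gene overlaps came from the RefSeq table of UU_Cfam_GSD_1.0, and no sequences are shown. Scripts ran in Python 3.11.15 with matplotlib 3.10.9, numpy 2.4.6 and pandas 2.3.3.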

Additional observations from a re-analysis of the deposited data

How the results depend on the processing

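The authors' means carry no replicate error, so leaving out a sample could not be tried. No paired analysis was possible because the columns hold 1 mean per group. Every log2 ratio of a gene past the fold kept its sign and moved by under 0.1 when the groups were scaled to equal sums or centred on the median gene. Both settings shift all genes of a comparison by nearly the same small amount. No ratio past the fold could therefore change sign, and this outcome says nothing about single genes. Scaling to equal sums moved the median of all genes to -0.06 in M1 against M0, -0.01 in M2 against M0 and 0.04 in M2 against M1.

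In M1 against M0, the 7 genes past the fold in the higher direction became 3 at 2-fold, 2 at a log2 ratio of 1.5 and 4 with equal sums, and the 6 lower ones became 3 at a log2 ratio of 1.5. In M2 against M0, the 2 higher genes became 0 at 2-fold and 0 at a log2 ratio of 1.5, and 1 with equal sums and 1 with median centring. The 4 lower ones became 2 at 2-fold and 0 at a log2 ratio of 1.5. In M2 against M1, the 4 higher genes became 1 at 2-fold, 1 at a log2 ratio of 1.5 and 2 at a count minimum of 500, and the 5 lower ones became 1 at a log2 ratio of 1.5. These counts fall with a stricter threshold by construction. The median of the sterol enzymes in M1 against M0 was 0.45 at a minimum of 500. That of the fatty acid enzymes became 0.0078 in M1 against M0 and -0.034 in M2 against M1 at a minimum of 500, both with the opposite sign, and 0.27 in M2 against M1 with no minimum, so the sign of this median rests on which low genes enter. The other alternative values of branch medians, 32 of 36, moved by under 0.1. Most of these could hardly move, so their number says little about robustness. Scaling and centring shift all genes of a comparison by nearly the same small amount, and a pseudocount changes little at these counts. With no minimum the sterol medians could not change, because every sterol enzyme passes the main minimum. All values that moved by more came from a change of the count minimum. With equal sums, 12 sterol enzymes had a higher mean in M1 than in M0 and 10 in M2 than in M0, alternatives added after the data were seen.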
